A study of Homo sapiens with 18 samples.

Results

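MDA-MB-436 cells are an established human line of triple-negative breast cancer, and SMARCAL1 is the annealing helicase that remodels stalled replication forks. The comparison described here sets the 2 PLATE-seq libraries of SMARCAL1 knockout clone 3 against the 4 libraries of knockout clones 1 and 2, with clones 1 and 2 given equal weight. The 6 libraries were taken by their titles, from 18 libraries in the series. Clones 1, 2 and 3 all carry the SMARCAL1 knockout genotype in the labels, were given no treatment, and differ in the labels by clone number, replicate number and a cell line tag. Each clone is 1 clonal line with 2 libraries called biological replicates. The labels do not say whether these came from separate cultures, so p-values measure only the spread between libraries of the same group. That spread was estimated from the clone libraries together with the PLATE-seq libraries of the control, the siRNA control and the SMARCAL1 siRNA. The titles of the 6 libraries name MDA-MB-436, whereas their cell line tags run from MDA-MB-439 to MDA-MB-444, one number for each library. The question the comparison answers is how far knockout lines that share 1 labelled genotype differ in their messenger RNA.

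A clonal line descends from a single cell, so any heritable state of that cell is carried by all of its progeny. SMARCAL1 binds RPA-coated single-stranded DNA and rewinds it, which limits breakage at stalled forks. Basal-like breast cancer cells of this kind commonly secrete interleukins, chemokines and acute-phase proteins, many of them under the control of NF-kappa-B and AP-1, and interleukin 1 alpha is an upstream member of that secretory programme.

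PLATE-seq reads the 3' ends of polyadenylated RNA in a multiwell plate, and its libraries are shallow. Total counts were 921179 to 1833653 in clones 1 and 2, and 2412226 and 3068902 in clone 3, so clone 3 had the deepest libraries. A count of 3 corresponded to 0.911 to 3.12 CPM (the count scaled to a common library size) over the 6 libraries, and a gene below that level was not measurable. Clone 3 replicate 2 stood apart with 24.6% of its counts in mitochondrial transcripts, against 28.8% to 32.8% in the other 5 clone libraries. VIM and CD44 were abundant in all 6 libraries, ESR1, PGR, PTPRC, CD3D, VWF, CDH5, LUM and DCN had no count in any of them, and no member of the leukocyte list was high enough to be tested. FN1, another mesenchymal gene, had 0 to 6 counts. Other markers had counts: CDH1 14 to 77, EPCAM 0 to 9, CD68 0 to 11, PECAM1 0 to 7, GATA3 0 to 4 and LYZ 0 to 1. PDGFRA had 20 counts in clone 1 replicate 2 and 0 or 1 in the other clone libraries. The hormone receptor genes were thus at 0, as for a triple-negative line, in every clone. ERBB2, with 4 to 17 counts (3.28 to 7.11 CPM), was low but not at 0.

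SMARCAL1 itself (chr2:216412414-216483053, plus strand) had few counts everywhere: 3 and 6 in clone 1, 8 and 3 in clone 2, and 16 and 44 in clone 3. Scaled to library size these were 1.78 and 3.28 CPM in clone 1, 8.32 and 3.07 CPM in clone 2 and 7.11 and 13.4 CPM in clone 3. Clone 3 replicate 1 lay within the range of the other clones and replicate 2 above it. Per library total, clone 3 had 2.97 times the pooled counts of clones 1 and 2, with an exact binomial 95% interval of 1.77 to 5.21 that covers counting error only. Against clone 1 the ratio was 4.32 (2.13 to 9.90), and against clone 2 it was 1.87 (0.975 to 3.95), an interval that includes 1. In the test over all genes the difference did not pass. For SMARCAL1 the log2 difference was 1.41 ± 0.95 (SE), adjusted p = 0.569. A 3' end read does not report whether a coding exon was disrupted, so these counts do not check the knockout, and clone 3 here means the libraries labelled clone 3.

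In edgeR's quasi-likelihood test with Benjamini-Hochberg adjustment over 8595 genes, 158 genes (1.84%) passed an adjusted p of 0.05 between clone 3 and the mean of clones 1 and 2. Of these, 100 (1.16%) were higher and 58 (0.675%) lower in clone 3, 1206 genes had an unadjusted p under 0.05, and the median log2 difference over all genes tested was 0.04. The clone 3 libraries lay outside the range of the other 4 at 149 of the 158 genes, against 1918 of all 8595 (22.3%), and the 9 exceptions were all genes called higher. Clone 3 against clone 1 gave 40 genes (0.465%), and clone 3 against clone 2 gave 65 (0.756%). Both of these contrasts use the same clone 3 libraries. Clone 1 against clone 2 gave 0 genes with edgeR (0%), with 438 at an unadjusted p under 0.05 and 0.315 as the smallest adjusted p. DESeq2 gave 1 there. That does not make clones 1 and 2 the closest libraries. The clone 1 libraries correlated at 0.907 and 0.906 with clone 3 replicate 1, on log2 CPM. Their correlations were 0.883 to 0.893 with the clone 2 libraries and 0.885 with clone 3 replicate 2. The libraries of clone 2 agreed least with each other, at 0.865, against 0.919 in clone 1 and 0.923 in clone 3. Genes over 2 log2 apart between replicates numbered 743 in clone 2, 269 in clone 1 and 153 in clone 3. These correlations and counts depend on depth, and the clone 2 libraries were the shallowest of the clone libraries. Set against counting error, the order differed. The chi-square per degree of freedom between replicates, which rises with depth, was 19.1 in clone 3, 7.43 in clone 1 and 7.24 in clone 2. In such bulk libraries fewer cells expressing a gene and less of its RNA per cell cannot be told apart. Clones 1 and 2 were shallower than clone 3, and the median standard error was 0.576 on the log2 scale between clones 1 and 2, 0.544 and 0.567 between clone 3 and each of them, and 0.474 against their mean, so the count of 158 had the most precise contrast behind it.

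**Figure D1:**
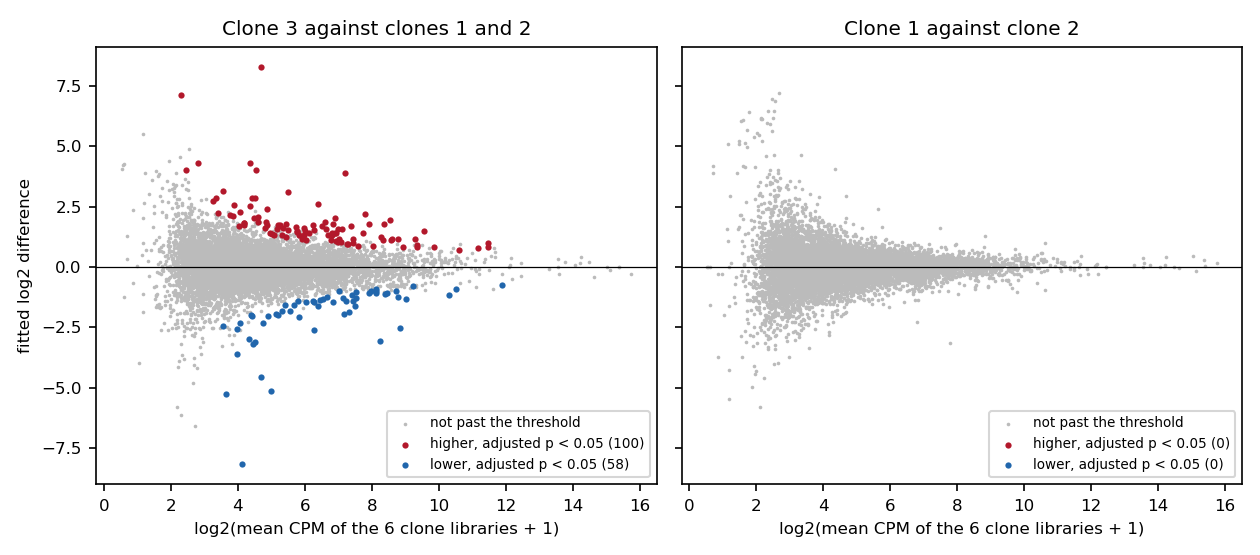
Fitted log2 difference (vertical axis) against log2 of the mean CPM of the 6 clone libraries plus 1 (horizontal axis) for the 8595 genes tested. The left panel shows clone 3 minus the mean of clones 1 and 2, with 100 genes higher and 58 lower past the threshold, and the right panel shows clone 1 minus clone 2, with 0.

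The calls depended on single libraries. Without clone 3 replicate 2, 27 genes passed, of which 23 were among the 158. Without clone 3 replicate 1, 233 passed, of which 109 were among the 158, and without clone 1 replicate 2, 89 passed, of which 80 were. The low-count filter was applied anew on each omission, so 9173 to 9941 genes were tested. A set of 16 genes passed the threshold on each of the 6 omissions of 1 library: SPOCD1, IL24, VGF, BEX1, VPS26A, FADS2, DNAJC15, SEMA6B and NKILA, which were higher, and IL1A, PTPRN, TENM2, EDN1, LCN2, SAA1 and WNT7B, which were lower. TENM2, VPS26A and DNAJC15 were outside the rule for named genes and were chosen after their values were seen. These 16 are described with all their values where they fall below. A fit to the 6 clone libraries alone lost the calls of EREG, IL11, UBE2L6, CSF3, FOSL1, TPM1, TIMP1, LDHA, AURKA and RPS12, among others. Thinning to equal depth lost those of EREG, IL11, UBE2L6, NFKB1 and CLDN1, among others. AURKA was also lost under upper quartile scaling, and TIMP1 without a filter.

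**Figure D2:**
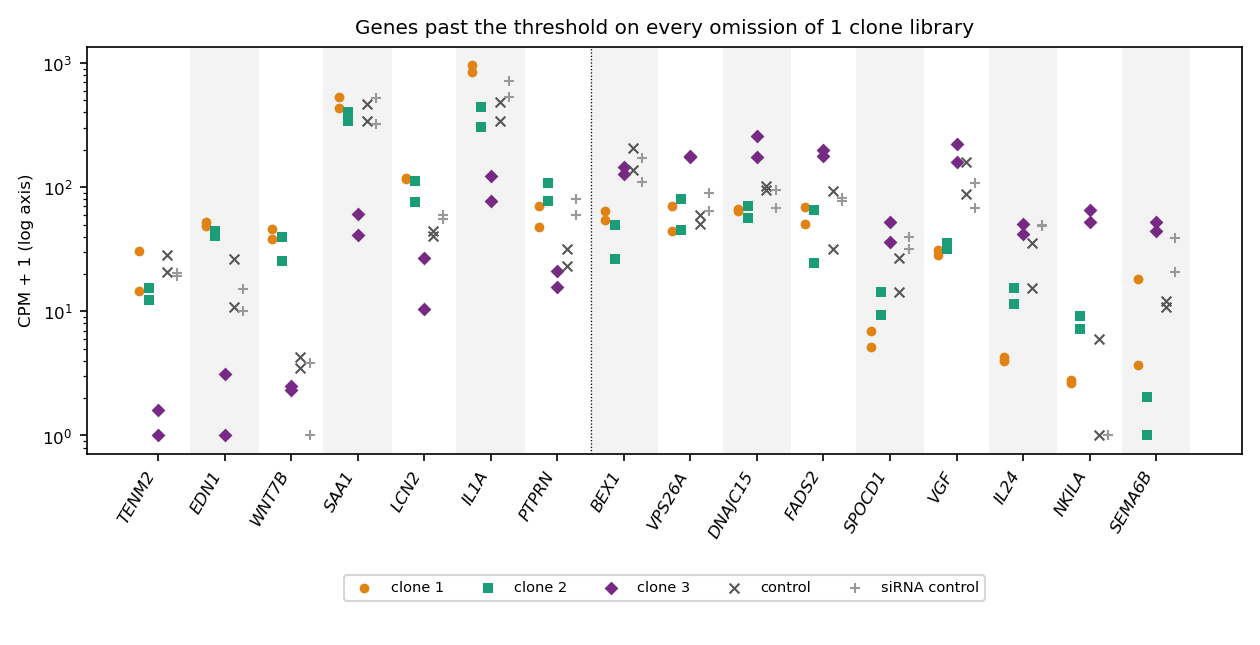
CPM plus 1 on a log axis for the 16 genes that passed the threshold on every omission of 1 clone library, ordered by fitted log2 difference, with lower genes left of the dotted line. Each point is 1 library of clone 1, clone 2, clone 3, the control or the siRNA control. Both clone 3 points lie outside the 4 points of clones 1 and 2 for each of the 16 genes.

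IL1A, SAA1 and LCN2, which encode a cytokine and a pair of acute-phase proteins, were lower in clone 3. IL1A, which encodes the alarm cytokine interleukin 1 alpha (chr2:112773915-112784590, minus strand), stood at 955 and 851 CPM in clone 1, 305 and 441 CPM in clone 2 and 76.4 and 122 CPM in clone 3. Both clone 3 libraries were far below the lowest of the others, and clone 1 was higher than clone 2 in both libraries. The log2 difference was -2.54 ± 0.27 (SE), adjusted p = 7.80e-06, or -3.18 against clone 1 and -1.901 against clone 2. SAA1, an acute-phase serum amyloid (chr11:18266174-18269977, plus strand), was at 430.2 and 532 CPM in clone 1, 343 and 401 CPM in clone 2 and 59.99 and 40.4 CPM in clone 3. Here clones 1 and 2 were close to each other and clone 3 alone was low, by -3.08 ± 0.29 (SE), adjusted p = 1.11e-06, the smallest adjusted p of the comparison. SAA1 shares much of its sequence with the neighbouring SAA2, which was also called (log2 -2.43 ± 0.60 (SE), adjusted p = 0.0333), so reads may have been split or pooled between the pair. SAA2 is named outside the rule, after its values were seen.

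LCN2, an iron-siderophore-binding acute-phase protein, stood at 118 and 115 CPM in clone 1, 74.9 and 111 CPM in clone 2 and 25.8 and 9.41 CPM in clone 3. Neither clone 3 library reached the lowest library of clones 1 and 2, although the clone 3 libraries differed from each other more than the clone 1 libraries did. Its log2 difference was -2.59 ± 0.38 (SE), adjusted p = 0.000516, and it lay between -3.45 and -2.005 when 1 library was left out. The upstream sequence of LCN2 is shown because the gene is a textbook target of NF-kappa-B and held the sole match to that factor's 10-base consensus among the 12 of those 16 genes with a promoter at hand. The stretch is chr9:128149265-128149440 of GRCh38.p14 on the plus strand, from RefSeq, read 5' to 3', with capitals on a match to the NF-kappa-B consensus on the opposite strand and on a match to TGANTCA, the AP-1 type element.
LCN2: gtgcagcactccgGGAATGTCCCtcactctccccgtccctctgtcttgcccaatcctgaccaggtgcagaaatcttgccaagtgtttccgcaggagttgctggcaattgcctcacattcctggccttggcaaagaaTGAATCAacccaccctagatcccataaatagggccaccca

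RefSeq promoters were at hand for 12 of the 16 genes. Within the 250 bases before the start, on either strand, TGANTCA was found in 3 of the 12 (IL1A, LCN2 and DNAJC15) and in 6.84% of 27305 promoters, and the NF-kappa-B consensus in 1 of the 12 and in 9.49% of promoters. The motifs do not overlap each other in the LCN2 stretch. A match is a run of letters and not a measured binding site, and DNAJC15, with a match, was higher in clone 3 while IL1A and LCN2 were lower.

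Of 35 cytokines and chemokines listed, 17 were tested, 3 were called lower (CCL2, IL1A and CSF3) and 2 higher (IL24 and IL11), so 29.4% were called, against 1.84% of all genes. The median of the 17 was -1.03, beside 0.04 over all genes, and it lay between -1.39 and -0.14 over the alternative settings and omissions. Clones 1 and 2 also differed here, with a median of 0.55 for clone 1 minus clone 2, beside 0.005 over all genes. Summed over the list, CPM was 2578 and 2298 in clone 1, 1220 and 1639 in clone 2 and 933 and 1319 in clone 3. On that sum clone 3 overlapped clone 2. CCL2, the monocyte chemoattractant, was at 41.6 and 25.7 CPM in clone 1, 7.28 and 10.2 CPM in clone 2 and 2.67 and 0.304 CPM in clone 3. Clone 1 was well above clone 2, and clone 3 below both. For CCL2 the log2 difference was -3.58 ± 0.79 (SE), adjusted p = 0.0171, and it lay between -5.46 and -2.64 over the 6 omissions, with shifts of over 1.5-fold without either clone 3 library. That call was lost without clone 1 replicate 1 or clone 3 replicate 2, where the adjusted p reached 0.407. CSF3, which encodes the granulocyte colony-stimulating factor, was at 796 and 602 CPM in clone 1, 267 and 526 CPM in clone 2 and 197 and 254 CPM in clone 3. Clone 3 was again lowest, but clone 2 replicate 1 came close to it (log2 -1.22 ± 0.25 (SE), adjusted p = 0.0114), and the call was lost without clone 3 replicate 1 (adjusted p = 0.0564). The members IL18, LIF, IL6, CCL20 and CXCL8 had log2 differences of -1.87, -1.78, -1.43, -1.29 and -0.58 and did not pass, and IL1B, at 0.51, did not either.

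The 2 called higher were of different families. IL24, a member of the interleukin 10 family, was at 2.97 and 3.28 CPM in clone 1, 10.4 and 14.3 CPM in clone 2 and 49.3 and 40.99 CPM in clone 3. Both clone 3 libraries exceeded the others, and clone 1 was lower than clone 2. For IL24 the log2 difference was 2.84 ± 0.39 (SE), adjusted p = 0.000244, or 3.81 against clone 1 and 1.86 against clone 2. IL11, an interleukin 6 family cytokine that signals through gp130, was near the limit of measurement in clones 1 and 2, at 1.19 and 8.74 CPM in clone 1 and 5.2003 and 2.05 CPM in clone 2, and stood at 19.1 and 21.3 CPM in clone 3. The log2 difference was 2.22 ± 0.56 (SE), adjusted p = 0.0371, with 1.83 and 3.23 as its ends over the omissions and a shift of over 1.5-fold without clone 1 replicate 2, and the call was lost on 4 of the 6 omissions (without clone 1 replicate 1, clone 2 replicate 2 or either library of clone 3), with an adjusted p up to 0.349.

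The 24 tested subunits and targets of NF-kappa-B gave 1 call (4.17%, against 1.84% of all genes). NFKB1, the gene of the p105 and p50 subunit, was at 4.75 and 14.2 CPM in clone 1, 16.6 and 10.2 CPM in clone 2 and 36.4 and 57.99 CPM in clone 3 and was higher in clone 3. For NFKB1 the log2 difference was 2.06 ± 0.48 (SE), adjusted p = 0.0233. That call was lost without clone 1 replicate 1, clone 2 replicate 2 or clone 3 replicate 2 (adjusted p up to 0.469) and also after thinning all libraries to equal depth. The median of the list was -0.29. NFKBIA, the inhibitor induced by the pathway itself, had a log2 difference of -0.84 and RELA one of 1.09, neither past the threshold. NKILA, a long non-coding RNA named for its interaction with the NF-kappa-B and inhibitor complex (chr20:57710183-57712780, plus strand), was at 1.78 and 1.64 CPM in clone 1, 6.24 and 8.196 CPM in clone 2 and 63.99 and 51.6 CPM in clone 3. Its level in clone 3 was several times the highest other library. For NKILA the log2 difference was 3.998 ± 0.62 (SE), adjusted p = 0.000993. NKILA overlaps exons of PMEPA1 on the other strand, and since no source used here states a strand setting for the PLATE-seq counts, reads of the pair cannot be told apart. PMEPA1 had a log2 difference of 0.57 and did not pass. In the AP-1 family 1 of 16 genes (6.25%) was called, FOSL1, which encodes the FRA1 subunit, around a median of 0.03. FOSL1 was at 219 and 224 CPM in clone 1, 217 and 163 CPM in clone 2 and 339.5 and 413 CPM in clone 3 (log2 0.87 ± 0.21 (SE), adjusted p = 0.0301), a call lost without clone 1 replicate 1, clone 1 replicate 2, clone 2 replicate 2 or clone 3 replicate 2 (adjusted p up to 0.428).

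EDN1 and WNT7B, which encode secreted ligands, were lower in clone 3, and RSPO3, which encodes another secreted protein, was higher. EDN1, the gene of the vasoconstrictor endothelin 1 (chr6:12290363-12297194, plus strand), was at 51.1 and 47.5 CPM in clone 1, 39.5 and 43.03 CPM in clone 2 and 0 and 2.13 CPM in clone 3. Clones 1 and 2 agreed within a narrow range, and clone 3 had 0 and 7 counts. The log2 difference was -5.13 ± 0.72 (SE), adjusted p = 0.000299, and omissions moved it between -8.89 and -4.35, with the larger size when clone 3 was left with a single library at 0. WNT7B, a WNT ligand of epithelia (chr22:45920362-45977129, minus strand), was at 45.2 and 37.1 CPM in clone 1, 38.5 and 24.6 CPM in clone 2 and 1.33 and 1.52 CPM in clone 3. Both clone 3 libraries were near the limit of measurement and all 4 others far above it. For WNT7B the log2 difference was -4.57 ± 0.71 (SE), adjusted p = 0.000993. It was the sole call among 17 tested genes of the WNT pathway (5.88%, against 1.84% of all genes), whose median was -0.34. RSPO3, which amplifies WNT signalling at the receptor and was in no list, was at 3.57 and 1.09 CPM in clone 1, 4.16 and 3.07 CPM in clone 2 and 37.8 and 14.9 CPM in clone 3 and was higher. For RSPO3 the log2 difference was 3.14 ± 0.73 (SE), adjusted p = 0.0221, and it lay between 2.33 and 3.67 over the 6 omissions, with shifts of over 1.5-fold without clone 3 replicate 1. This call was lost without clone 1 replicate 2, clone 2 replicate 2 or clone 3 replicate 1 (adjusted p up to 0.25).

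A pair of TGF-beta superfamily ligands was lower in clone 3. INHBA, the activin A subunit, was at 41.003 and 19.1 CPM in clone 1, 33.3 and 24.6 CPM in clone 2 and 4.44 and 2.13 CPM in clone 3. For INHBA the log2 difference was -3.17 ± 0.69 (SE), adjusted p = 0.0169. BMP7, a bone morphogenetic protein, was at 17.8 and 26.8 CPM in clone 1, 35.4 and 44.1 CPM in clone 2 and 3.11 and 3.64 CPM in clone 3. For BMP7 the log2 difference was -3.099 ± 0.63 (SE), adjusted p = 0.0114. No clone 3 library of either gene reached any library of clones 1 and 2. The INHBA call was lost without clone 1 replicate 1 or clone 3 replicate 2 (adjusted p up to 0.39) and the BMP7 call without either clone 3 library (adjusted p up to 0.184). FST, which encodes follistatin, a secreted binder of activin, was at 13.1 and 28.9 CPM in clone 1, 17.7 and 24.6 CPM in clone 2 and 46.2 and 95.04 CPM in clone 3 and was higher. For FST the log2 difference was 1.74 ± 0.40 (SE), adjusted p = 0.0218. The call was lost without clone 1 replicate 1, clone 2 replicate 1 or clone 3 replicate 2, where the adjusted p reached 0.726 and the log2 difference ranged between 1.13 and 2.17. The 14 tested TGF-beta targets and feedback genes thus held 1 call higher (FST) and 2 lower, INHBA among them, around a median of 0.13. The share called was 21.4%, against 1.84% of all genes.

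ADM, the gene of the vasodilator adrenomedullin, was at 12.5 and 12.01 CPM in clone 1, 40.6 and 22.5 CPM in clone 2 and 3.11 and 4.55 CPM in clone 3. For ADM the log2 difference was -2.32 ± 0.59 (SE), adjusted p = 0.04. Its call was lost on 5 of 6 omissions, with clone 2 replicate 2 as the exception (adjusted p up to 0.366), and under the replicate block. EREG, an EGF receptor ligand, was at 119 and 54.6 CPM in clone 1, 169.5 and 81.96 CPM in clone 2 and 44.9 and 23.99 CPM in clone 3. The lowest library of clone 1 was close to the higher library of clone 3. For EREG the log2 difference was -1.61 ± 0.40 (SE), adjusted p = 0.0357. Its call was lost without clone 1 replicate 1, clone 2 replicate 1 or clone 3 replicate 2 (adjusted p up to 0.561). EREG was the sole call among 11 tested EGF receptor family members and ligands (9.09%, against 1.84% of all genes).

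COL8A1, TENM2 and CLDN1, whose proteins lie in the matrix or at cell contacts, were lower in clone 3. COL8A1, a short-chain collagen (chr3:99638475-99799226, plus strand), had no count in either clone 3 library, against 45.8 and 16.4 CPM in clone 1 and 27.04 and 10.2 CPM in clone 2. With 3 counts over the group as the floor, clone 3 was at least 45.9-fold lower (adjusted p = 0.00139). Without clone 3 replicate 2 the adjusted p was 0.05002, at the threshold, and the gene no longer passed. TENM2, a teneurin that spans the membrane and binds latrophilins, was at 13.7 and 29.5 CPM in clone 1, 14.6 and 11.3 CPM in clone 2 and 0 and 0.607 CPM in clone 3. For TENM2 the log2 difference was -5.27 ± 0.84 (SE), adjusted p = 0.00106. Its clone 3 counts were 0 and 2, so these 2 genes were at or below the limit of measurement in clone 3 and clearly expressed in the other clones. CLDN1, a tight-junction claudin, was at 14.3 and 9.83 CPM in clone 1, 31.2 and 54.3 CPM in clone 2 and 2.22 and 3.34 CPM in clone 3. For CLDN1 the log2 difference was -2.97 ± 0.63 (SE), adjusted p = 0.0137. Clone 2 was above clone 1, and the call was lost without clone 2 replicate 2 or either clone 3 library (adjusted p up to 0.188) and after thinning.

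Of 28 tested mesenchymal and matrix genes, 3 were called lower (10.7%, against 0.675% of all genes), 0 higher, and the median was -0.02. TPM1, an actin-binding tropomyosin, was at 522 and 717 CPM in clone 1, 378 and 426 CPM in clone 2 and 274 and 229.8 CPM in clone 3. For TPM1 the log2 difference was -0.99 ± 0.22 (SE), adjusted p = 0.0193. TIMP1, a metalloprotease inhibitor, was at 642 and 719 CPM in clone 1, 755 and 653 CPM in clone 2 and 400.4 and 400.2 CPM in clone 3. For TIMP1 the log2 difference was -0.79 ± 0.21 (SE), adjusted p = 0.0451. TPM1 was lost on 3 omissions (clone 1 replicate 2, clone 2 replicate 2 or clone 3 replicate 2; adjusted p up to 0.343) and TIMP1 on all 6 (up to 0.373). MMP1, the interstitial collagenase, was near 0 in clones 1 and 2 (0 and 2.18 CPM in clone 1, 1.04 and 0 CPM in clone 2) and at 4.89 and 28.2 CPM in clone 3. For MMP1 the log2 difference was 4.302 ± 1.11 (SE), adjusted p = 0.0438, and it lay between 2.54 and 6.21 over the 6 omissions, with shifts of over 1.5-fold without clone 1 replicate 2, clone 2 replicate 1 or either clone 3 library. Its size rested on clone 3 replicate 2, without which the adjusted p was 0.897; the call was also lost without clone 1 replicate 1 or either library of clone 2, and under the replicate block. VIM, at 0.17, ZEB1, at 0.21, and CDH2, at -0.94, did not pass.

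Neuroendocrine secretory genes went both ways. VGF, a nerve growth factor inducible peptide precursor of secretory granules (chr7:101162509-101165593, minus strand), was at 30.3 and 27.3 CPM in clone 1, 34.3 and 30.7 CPM in clone 2 and 158 and 219.8 CPM in clone 3. The 4 libraries of clones 1 and 2 were tightly grouped and both clone 3 libraries were far above them. For VGF the log2 difference was 2.62 ± 0.32 (SE), adjusted p = 4.81e-05, or 2.71 against clone 1 and 2.54 against clone 2. BEX1, a small adaptor of neurotrophin receptor signalling, was at 62.99 and 52.97 CPM in clone 1, 48.9 and 25.6 CPM in clone 2 and 144 and 127 CPM in clone 3. For BEX1 the log2 difference was 1.54 ± 0.28 (SE), adjusted p = 0.00344. PTPRN, a receptor-type phosphatase-like protein of dense-core granules (chr2:219289623-219309648, minus strand), was at 68.9 and 46.96 CPM in clone 1, 75.9 and 108 CPM in clone 2 and 14.7 and 20.04 CPM in clone 3. For PTPRN the log2 difference was -2.06 ± 0.34 (SE), adjusted p = 0.00143. PTPRN thus had the opposite direction to VGF although both proteins belong to the granule. Of the 12 tested members of the list 25% were called, against 1.84% of all genes, and their median was -0.10. CHGA, at -1.40, and BEX2, at -1.12, did not pass.

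The upstream sequence of VGF is shown because this promoter is a classic example of a cyclic AMP response element. The stretch is chr7:101165594-101165819 of GRCh38.p14, from RefSeq, on the minus strand and read 5' to 3', with capitals on the match to TGACGTCA.
VGF: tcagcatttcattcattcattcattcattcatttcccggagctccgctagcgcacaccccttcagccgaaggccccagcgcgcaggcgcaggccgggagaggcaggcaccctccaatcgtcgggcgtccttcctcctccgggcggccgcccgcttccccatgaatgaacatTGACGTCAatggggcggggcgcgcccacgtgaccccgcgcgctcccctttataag

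TGACGTCA, searched on either strand of the 250 bases before the start, was found in 2 of the 12 promoters at hand, VGF and NKILA, and in 1.73% of 27305 promoters. Both genes were higher in clone 3 in each replicate. The 12 promoters belong to genes chosen by the difference between the clones, and VGF is shown as a known example of this element. A match is not a measured binding site, and regulation through it was not tested.

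Other genes higher in clone 3 are known for separate roles. SEMA6B, a transmembrane semaphorin that guides axons (chr19:4542593-4559808, minus strand), was at 17.2 and 2.73 CPM in clone 1, 0 and 1.02 CPM in clone 2 and 51.5 and 43.7 CPM in clone 3. For SEMA6B the log2 difference was 4.28 ± 0.64 (SE), adjusted p = 0.000516, and it lay between 3.85 and 5.73 when 1 library was left out, moving by over 1.5-fold without clone 1 replicate 1 or clone 2 replicate 2. The clone 3 libraries were close to each other, while clone 1 replicate 1 was well above clone 1 replicate 2. SPOCD1, a nuclear protein known from transposon methylation in the male germ line (chr1:31790422-31816051, minus strand), was at 4.16 and 6.01 CPM in clone 1, 8.32 and 13.3 CPM in clone 2 and 35.1 and 51.01 CPM in clone 3. For SPOCD1 the log2 difference was 2.52 ± 0.40 (SE), adjusted p = 0.00103. VPS26A, a retromer subunit of endosomal sorting, was at 43.4 and 69.9 CPM in clone 1, 79.05 and 44.1 CPM in clone 2 and 175 and 177 CPM in clone 3 (log2 1.58 ± 0.28 (SE), adjusted p = 0.00295), with clone 3 libraries that were nearly equal. DNAJC15, a co-chaperone of the mitochondrial import motor, was at 65.4 and 63.3 CPM in clone 1, 69.7 and 55.3 CPM in clone 2 and 176 and 259.6 CPM in clone 3. For DNAJC15 the log2 difference was 1.78 ± 0.26 (SE), adjusted p = 0.000516. All 4 were above every library of clones 1 and 2 in both clone 3 libraries.

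Of 27 tested genes of cholesterol synthesis and SREBP targets, 2 were called higher (7.41%, against 1.16% of all genes) and 0 lower. In this list 22 lay above 0, where 4490 of all 8595 genes did. The median was 0.37, beside 0.04 over all genes. FADS2, the delta-6 fatty acid desaturase (chr11:61792980-61867354, plus strand), was at 49.9 and 68.3 CPM in clone 1, 64.5 and 23.6 CPM in clone 2 and 198 and 177 CPM in clone 3. For FADS2 the log2 difference was 1.88 ± 0.35 (SE), adjusted p = 0.00503. Its exons overlap FADS1 on the other strand and FEN1 on the same strand, and FADS1 had a log2 difference of -0.08 and did not pass. FASN, at 0.09, did not pass.

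Cytosolic ribosomal proteins gave 10 calls higher and 0 lower among 69 tested (14.5%), against 1.16% called higher and 1.84% called in all among the 8595 genes. The list had 57 members above 0 and a median of 0.42, where 4490 of all genes were above 0. RPL30 was at 1966 and 2367 CPM in clone 1, 2576 and 2152 CPM in clone 2 and 3706 and 4334 CPM in clone 3. For RPL30 the log2 difference was 0.83 ± 0.18 (SE), adjusted p = 0.0165. RPS12 was at 481 and 517 CPM in clone 1, 495 and 505 CPM in clone 2 and 739.9 and 1164 CPM in clone 3. For RPS12 the log2 difference was 0.93 ± 0.21 (SE), adjusted p = 0.0192. RPLP0 was at 182 and 150.2 CPM in clone 1, 246 and 158 CPM in clone 2 and 192 and 1060.3 CPM in clone 3. For RPLP0 the log2 difference was 1.77 ± 0.39 (SE), adjusted p = 0.0165, and it lay between 0.07 and 2.54 over the 6 omissions, with shifts of over 1.5-fold without either clone 3 library. That means that 1 clone 3 library was within the range of clone 2 and the other several times above it. Both RPL30 and RPS12 were lost without clone 1 replicate 1 or clone 3 replicate 2 (adjusted p up to 0.213 and 0.567), and RPLP0 without clone 3 replicate 2 (up to 1) and under DESeq2. Without clone 3 replicate 2, 0 of the list were called higher and the median was 0.22; without clone 3 replicate 1, 17 were and the median was 0.49. The summed share of ribosomal protein counts was 9.45% and 10.996% in clone 3 and 7.83% to 8.29% in the other 4 libraries. Clone 3 also had the deepest libraries and its replicate 2 the lowest mitochondrial share, and the part of these in the result was not tested. After the counts of all libraries were thinned to equal totals, 10 members were called higher. Thinning leaves the composition of a library as it was. Ribosomal protein genes have many near-identical pseudogene copies, so single members are uncertain.

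Nuclear genes of the respiratory chain had a median of 0.34, with 57 of 69 above 0. Called higher were 3 (4.35%, against 1.16% of all genes): NDUFB9, a complex I subunit, UQCRQ, a complex III subunit, and ATP5G1, a subunit of the ATP synthase ring. NDUFB9 was at 425 and 382 CPM in clone 1, 363 and 381 CPM in clone 2 and 703 and 672 CPM in clone 3. For NDUFB9 the log2 difference was 0.83 ± 0.19 (SE), adjusted p = 0.0231. UQCRQ was at 775 and 929.9 CPM in clone 1, 746 and 527 CPM in clone 2 and 1553 and 1084 CPM in clone 3. For UQCRQ the log2 difference was 0.84 ± 0.21 (SE), adjusted p = 0.0392. ATP5G1 was at 93.3 and 85.2 CPM in clone 1, 60.3 and 77.9 CPM in clone 2 and 127 and 211 CPM in clone 3. For ATP5G1 the log2 difference was 1.11 ± 0.26 (SE), adjusted p = 0.0267. Each was above the other clones in both clone 3 libraries, and each call was lost on 4 or 5 of the 6 omissions, with adjusted p up to 0.151, 0.285 and 0.658. With the 6 clone libraries alone none of the 3 was called, and ATP5G1 was not called after thinning to equal depth either. The 13 messenger RNAs encoded by mitochondrial DNA had 0 calls and a median of -0.13.

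**Figure D3:**
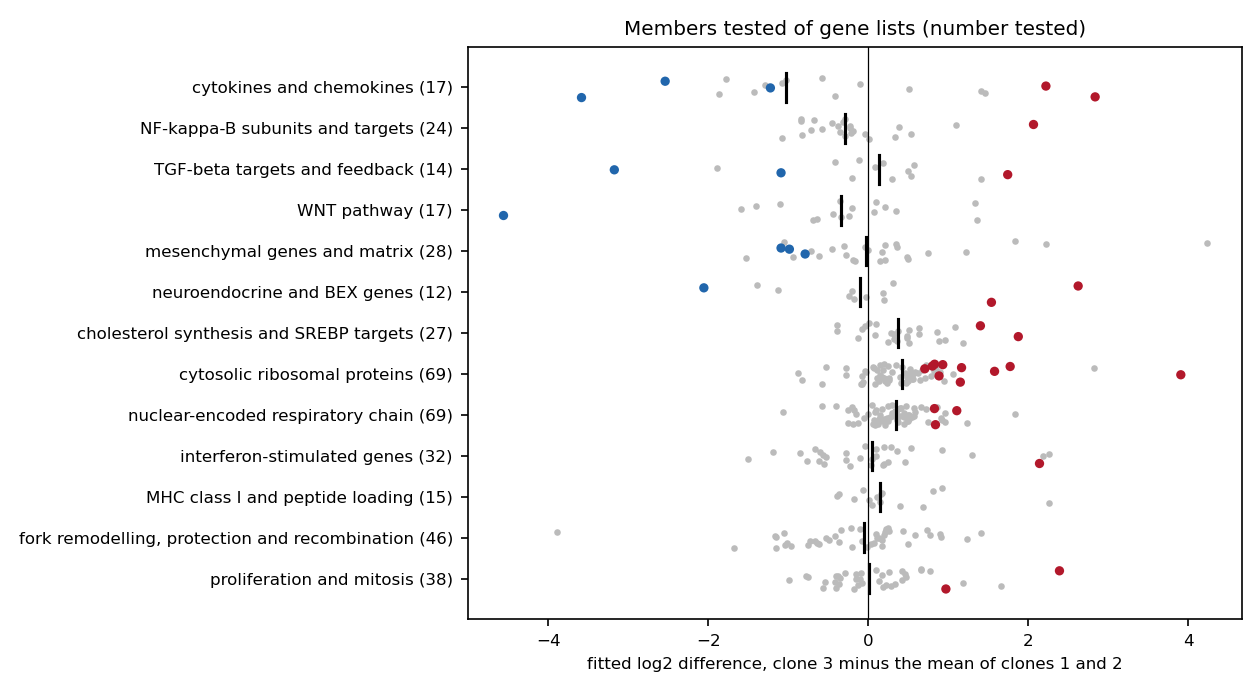
Fitted log2 difference of clone 3 minus the mean of clones 1 and 2 (horizontal axis) for the members tested of 13 gene lists, with the number tested in brackets. Grey points did not pass the threshold, red and blue points did, and black bars are list medians, of which that of the cytokines and chemokines is the lowest at -1.03.

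Some of the largest differences came from 1 clone 3 library. LMOD3, a leiomodin of striated muscle thin filaments, was at 0 and 1.09 CPM in clone 1, 0 and 0 CPM in clone 2 and 145 and 1.52 CPM in clone 3, so a single library held nearly all of its counts. For LMOD3 the log2 difference was 8.28 ± 1.67 (SE), adjusted p = 0.013, and it lay between 2.74 and 9.73 over the 6 omissions, with shifts of over 1.5-fold without clone 1 replicate 2 or either clone 3 library. Without clone 3 replicate 1 the adjusted p was 0.651, and DESeq2 did not call it. MMAB, an enzyme of cobalamin metabolism, was at 11.9 and 13.7 CPM in clone 1, 7.28 and 16.4 CPM in clone 2 and 193 and 21.6 CPM in clone 3. For MMAB the log2 difference was 3.11 ± 0.54 (SE), adjusted p = 0.0025, and it lay between 0.81 and 3.96 over the 6 omissions, with shifts of over 1.5-fold without either clone 3 library. It was lost without clone 3 replicate 1 (adjusted p = 0.694). RPS28, a small ribosomal subunit protein, was at 26.1 and 18.6 CPM in clone 1, 38.5 and 21.5 CPM in clone 2 and 85.8 and 690.5 CPM in clone 3. For RPS28 the log2 difference was 3.91 ± 0.49 (SE), adjusted p = 5.97e-05, and it lay between 1.73 and 4.74 over the 6 omissions, with shifts of over 1.5-fold without either clone 3 library. The call was lost without clone 3 replicate 2 (adjusted p = 0.184). RPS28 and MMAB share exonic bases with genes on the other strand, among them NDUFA7 and MVK. LDHA, the lactate dehydrogenase subunit, was at 238 and 281 CPM in clone 1, 196 and 221 CPM in clone 2 and 271 and 732 CPM in clone 3. For LDHA the log2 difference was 1.11 ± 0.28 (SE), adjusted p = 0.0344. SLC3A2, the heavy chain of the cystine and leucine transporters, was at 103 and 89.6 CPM in clone 1, 53.04 and 65.6 CPM in clone 2 and 88.9 and 359.5 CPM in clone 3. For SLC3A2 the log2 difference was 1.57 ± 0.37 (SE), adjusted p = 0.0251. For both, clone 3 replicate 1 lay within or close to the range of the other clones, and over the 6 omissions the log2 difference lay between 0.22 and 1.66 for LDHA and between 0.24 and 2.25 for SLC3A2. The lower value in each case was without clone 3 replicate 2, with adjusted p of 0.97 and 0.989. SGK1, a serum and glucocorticoid regulated kinase, was at 6.54 and 6.55 CPM in clone 1, 6.24 and 2.05 CPM in clone 2 and 17.3 and 44.03 CPM in clone 3. For SGK1 the log2 difference was 2.55 ± 0.54 (SE), adjusted p = 0.0152, and it lay between 1.72 and 3.06 over the 6 omissions, with shifts of over 1.5-fold without clone 3 replicate 2. CKS2, a cyclin-dependent kinase subunit, was at 13.7 and 9.28 CPM in clone 1, 3.12 and 20.5 CPM in clone 2 and 33.8 and 88.4 CPM in clone 3. For CKS2 the log2 difference was 2.39 ± 0.49 (SE), adjusted p = 0.0125, and it lay between 1.53 and 3.36 over the 6 omissions, with shifts of over 1.5-fold without clone 2 replicate 2 or clone 3 replicate 2. Both were lost without clone 3 replicate 2 (adjusted p up to 0.58 and 0.562), and SGK1 also without clone 2 replicate 2. GPATCH11, a G-patch domain protein whose exons overlap EIF2AK2 on the other strand, was at 13.1 and 16.9 CPM in clone 1, 26.002 and 26.6 CPM in clone 2 and 3.56 and 3.04 CPM in clone 3 (log2 -2.57 ± 0.65 (SE), adjusted p = 0.039), and its call was lost on all 6 omissions (up to 0.459).

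The genes the series is named for showed few differences among the clones. CD274, the gene of the immune checkpoint ligand PD-L1, was at 7.73 and 7.64 CPM in clone 1, 9.36 and 12.3 CPM in clone 2 and 7.999 and 19.1 CPM in clone 3, with a log2 difference of 0.58 ± 0.58 (SE), adjusted p = 0.735, and it turned from 0.58 to -0.18 without clone 3 replicate 2. Of 16 tested checkpoint and NKG2D ligands 0 were called (median -0.26), of 21 genes of cytosolic nucleic acid sensing 0 (median -0.14), and of 15 genes of MHC class I and peptide loading 0 (median 0.15). The 32 tested interferon-stimulated genes held 1 call (3.12%, against 1.84% of all genes). It was UBE2L6, the conjugating enzyme of ISG15, at 16.05 and 6.01 CPM in clone 1, 3.12 and 2.05 CPM in clone 2 and 22.7 and 24.9 CPM in clone 3 (log2 2.14 ± 0.55 (SE), adjusted p = 0.0406), lost on 5 of 6 omissions, with clone 1 replicate 1 as the exception (adjusted p up to 0.39). Their median was 0.04. Fork remodelling, protection and recombination genes, the pathway of SMARCAL1, had 0 calls of 46 and a median of -0.05, DNA replication genes 0 of 42 (0.07) and p53 targets 0 of 17 (-0.22). Proliferation and mitosis genes had 2 calls of 38 (5.26%), CKS2 and AURKA, and a median of 0.01. AURKA, a mitotic kinase, was at 128 and 96.7 CPM in clone 1, 153 and 85.03 CPM in clone 2 and 232 and 221 CPM in clone 3. For AURKA the log2 difference was 0.97 ± 0.25 (SE), adjusted p = 0.0466. It was lost on all but 1 of 6 omissions, that of clone 2 replicate 1 (adjusted p up to 0.333). The median standard error over all genes was 0.474 on the log2 scale, and a difference had to be several times its own standard error to be called, so a gene without a call is not shown to be equal in the clones.

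Differences were also summarised along the chromosomes. Coordinates were at hand for 8204 of the 8595 genes, from GENCODE release 29 on GRCh38, and 261 windows of 10000000 bases held at least 10 tested genes. The median log2 difference of a window was at or above 0.5 in 10 of them and at or below -0.5 in 14. In all 24 the medians of both clone 3 libraries, taken against the mean of clones 1 and 2, lay on the same side of 0. The 24 were chosen by a median built from these same libraries, so that agreement follows in large part from the choice. Between clones 1 and 2, 2 windows were of that size, and there were 26 between clone 3 and clone 1 and 32 between clone 3 and clone 2, which share the clone 3 libraries. The windows were singled out after their values were seen, a window's genes are not replicates, and no test is given.

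**Figure D4:**
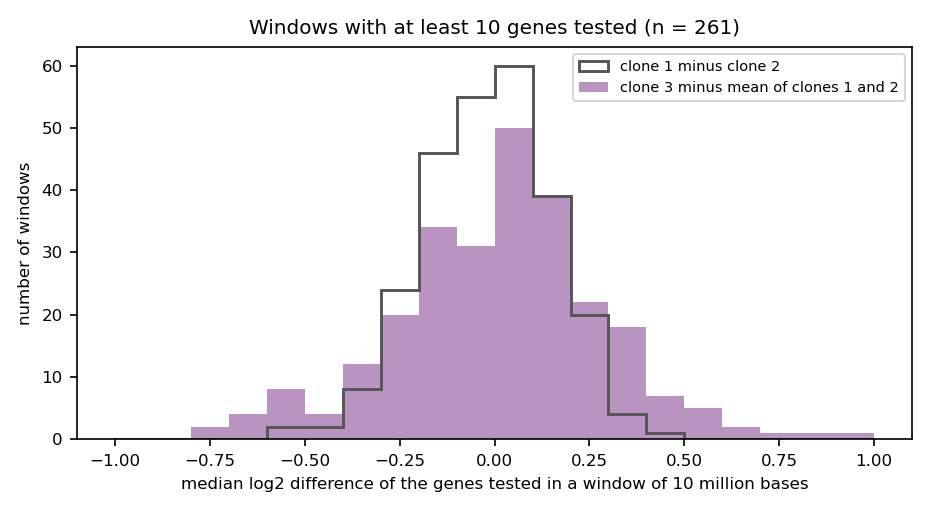
Number of windows (vertical axis) by the median log2 difference of their tested genes (horizontal axis), for the 261 windows with at least 10 tested genes. Filled bars are clone 3 minus the mean of clones 1 and 2, which spread from -0.80 to 0.94, and the line is clone 1 minus clone 2.

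The highest median lay on chromosome 6, and the next 2 windows towards the end of the long arm were also among the 24. At chr6:120000001-130000000 the median of 13 genes was 0.94, at chr6:130000001-140000000 that of 18 genes was 0.68, and at chr6:140000001-150000000 that of 26 genes was 0.56. The clone 3 libraries were at 0.74 and 1.04 in the first of these, against 0.01 to 0.21 in the libraries of clones 1 and 2. The called genes RSPO3, RPS12, SGK1 and FBXO30 lay in these 3 windows. At chr14:70000001-80000000 the median of 34 genes was 0.81, with 85.3% above 0; the clone 3 libraries were at 0.58 and 0.83 and the other 4 between -0.19 and 0.12. LIN52, a subunit of the MuvB complex that represses cell cycle genes, lies there, at 0 and 2.18 CPM in clone 1, 9.36 and 3.07 CPM in clone 2 and 22.7 and 17.6 CPM in clone 3. For LIN52 the log2 difference was 2.87 ± 0.69 (SE), adjusted p = 0.0284, and it lay between 2.42 and 4.78 over the 6 omissions, with shifts of over 1.5-fold without clone 1 replicate 2. It was lost on 4 of 6 omissions (without clone 1 replicate 1, clone 2 replicate 2 or either clone 3 library; adjusted p up to 0.206). Chromosome 13 had the highest median of a whole chromosome, 0.38 over 147 genes.

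The 2 lowest medians lay at the end of the long arm of chromosome 2, next to another low window. From the centromere outwards the medians were -0.62 over 15 genes at chr2:220000001-230000000, -0.80 over 34 genes at chr2:230000001-240000000 and -0.71 over 15 genes at chr2:240000001-250000000. None of the 15 genes of the last window was above 0, and 8.82% of the 34 were. The clone 3 libraries stood at -0.71 and -0.81 in the middle window and those of clones 1 and 2 between -0.09 and 0.16. NCL, the gene of nucleolin, was 1 of 3 genes called there (log2 -1.16 ± 0.27 (SE), adjusted p = 0.0232), and it and FBXO30 are named after their values were seen. PTPRN and SMARCAL1 lie nearer the centromere on the same arm. At chr3:150000001-160000000 the median was -0.68 and 0 of 17 genes were above 0, and 2 windows of chromosome 10, chr10:90000001-100000000 and chr10:110000001-120000000, had medians of -0.56 and -0.58 over 38 genes each without any gene passing the threshold by itself. EDN1 lies at chr6:10000001-20000000, where the median of 23 genes was -0.62 and, without clone 2 replicate 1, -0.26. Clones 1 and 2 also differed in this window, with a median of -0.52 for clone 1 minus clone 2. The libraries were at -0.16 and -0.34 in clone 1, 0.15 and 0.18 in clone 2 and -0.50 and -0.46 in clone 3. Those of the control and siRNA control lay between -0.68 and -0.39. None of the 24 medians changed sign under any alternative setting or omission tried, but 3 came near 0. That of chr3:60000001-70000000, where LMOD3 lies, moved from 0.52 to 0.078 under the stricter filter. That of chr2:180000001-190000000 moved from -0.60 to -0.086 after thinning to equal depth, and that of chr2:50000001-60000000 from -0.51 to -0.14 without clone 3 replicate 2. The median of 0.94 on chromosome 6 was 0.53 without clone 3 replicate 2, and that of -0.68 on chromosome 3 was -0.40 without clone 2 replicate 1.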

How the data were processed

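Gene-level read counts of 12 PLATE-seq libraries were used as deposited; they are whole-number counts that the authors made with STAR and HTSeq on hg38, per the submitters' processing notes, which give no versions or strand setting. The table held 44359 entries; 92 spike-ins were left out, and the TruSeq libraries were not used here. edgeR 4.0.16 in R 4.3.3 was fitted to all 12 libraries with 1 mean per group (TMM scaling, filterByExpr, 8595 genes, 6 residual degrees of freedom, quasi-likelihood F test, Benjamini-Hochberg adjustment, threshold 0.05). The standard error is the log2 difference divided by the square root of F. CPM used TMM-scaled library sizes. Named genes were SMARCAL1, CD274, the 12 called genes with the largest difference in each direction with a group mean of at least 20 CPM and both clone 3 libraries outside the range of the others, and called list members, of which a few are not reported here; SAA2, NCL, FBXO30, TENM2, VPS26A, DNAJC15 and uncalled list members were named after their values were seen. Members and lists were chosen with earlier results of these data known. Replicate numbers are not taken to pair clones. The fit was tested on simulated counts. Alternatives were DESeq2 1.42.0, other scalings and filters, the 6 clone libraries alone, equal depth, a replicate block and omission of each library. Upstream sequences are from RefSeq (GRCh38.p14).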

Additional observations from a re-analysis of the deposited data

How the results depend on the processing

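The count of 158 genes (63.3% higher in clone 3) stayed within 1.5 times under RLE scaling (162), upper quartile scaling (155), a stricter filter (154), thinning to equal depth (154, of which 126 were among the 158), and the 6 clone libraries alone (119). With the replicate block it was 153, of which 145 were among the 158. The correlations of replicate differences between clones were 0.0277, 0.00754 and 0.0265. Replicate number did divide the spike-in share. It was 0.0262% to 0.0381% in replicate 1 of the clones and 0.000489% to 0.000927% in replicate 2. A shared difference between replicates is therefore not excluded by the low correlations, and its source was not tested. DESeq2 gave 242 genes (49.2% higher), 113 against clone 1, 175 against clone 2 and 1 between clones 1 and 2. Without a filter the counts were 271 (70.8% higher), with 137 against clone 1, 199 against clone 2 and 7 between clones 1 and 2. The 6 clone libraries alone gave 25 genes against clone 1 and 36 against clone 2. Leaving out 1 library at a time gave 27 to 233 genes against the mean of clones 1 and 2, 18 to 95 against clone 1, 10 to 178 against clone 2, 1 to 4 between clones 1 and 2, and 2580 to 4315 genes with clone 3 outside the range of the others. An omission leaves 1 library in a clone, which is assumed to vary like the others. No called named gene changed direction; 2 of the 59 had no adjusted p from DESeq2, and 20 of 57 no longer passed with the 6 clone libraries alone. Depth limits genes under about 3 counts, and 2 libraries a clone leave the calls open to 1 library.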

Other observations

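The control and siRNA control libraries entered the fit through the filter, the scaling and the estimate of spread. Above, their values were given only in the plot of levels by library and for the window that holds EDN1. Their levels give the 158 called genes another reference. On the scale of log2(CPM + 1), the mean of the 2 control libraries was nearer to clone 3 at 49 of the 158 genes and nearer to clones 1 and 2 at 109. For the siRNA control the numbers were 57 and 101. Both control groups were nearer to clones 1 and 2 at 84 genes and nearer to clone 3 at 32. These are descriptions with no test, and the called genes were chosen by the difference between the clones.

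Genes with the controls beside clones 1 and 2 included SAA1, IL1A and TENM2. SAA1 was at 341 and 464 CPM in the control and 320.0 and 524 CPM in the siRNA control, IL1A at 338 and 484 CPM in the control and 536 and 715 CPM in the siRNA control and TENM2 at 19.9 and 27.3 CPM in the control and 19.3 and 18.2 CPM in the siRNA control, so that the clone 3 libraries were the lowest of these libraries. VPS26A, at 49.8 and 58.3 CPM in the control and 88.5 and 63.2 CPM in the siRNA control, DNAJC15, at 94.003 and 102 CPM in the control and 93.8 and 67.4 CPM in the siRNA control, and NKILA, at 0 and 4.96 CPM in the control and 0 and 0 CPM in the siRNA control, were below both clone 3 libraries. Other genes had controls beside clone 3. Among them was IL24, at 14.4 and 34.7 CPM in the control and 47.3 and 48.4 CPM in the siRNA control. The called cytokine genes thus divided. WNT7B, the epithelial WNT ligand, was at 3.32 and 2.48 CPM in the control and 0 and 2.81 CPM in the siRNA control, and COL8A1, the short-chain collagen, at 8.85 and 0 CPM in the control and 2.63 and 1.404 CPM in the siRNA control; here clones 1 and 2 were the high libraries. BEX1, at 136 and 205 CPM in the control and 172 and 109 CPM in the siRNA control, and VGF, at 158 and 86.8 CPM in the control and 108 and 66.7 CPM in the siRNA control, were higher in the controls than in clones 1 and 2. LMOD3 was high in 1 library of clone 3 and also in 1 library of the siRNA control, at 0 and 0 CPM in the control and 134 and 0.702 CPM in the siRNA control.

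The windows divided in the same manner. At chr2:240000001-250000000 the medians of the control and siRNA control libraries, against the mean of clones 1 and 2, were -0.61, -0.50, -1.15 and -0.67, like the clone 3 libraries at -0.76 and -0.65. At chr3:150000001-160000000 they were -0.18, -0.14, 0.06 and 0.00, whereas clone 3 was at -0.56 and -0.61. At chr14:70000001-80000000 they were -0.07, 0.19, -0.02 and 0.19, whereas clone 3 was at 0.58 and 0.83. At chr6:120000001-130000000, the window of the highest median, they were 0.22, 0.01, 0.29 and 0.74, and clone 3 was at 0.74 and 1.04. Replicate 2 of the siRNA control was thus level with the lower clone 3 library there.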
